A study of Mus musculus with 40 samples.

Results

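Marrow RNA of mice taken 2 days after cyclophosphamide was compared with that of mice taken 1 day after it. The comparison used 10 mice and 20 arrays of the 20 mice and 40 arrays in the series, chosen by their labels alone. Cyclophosphamide is a prodrug whose metabolites cross-link DNA. Dividing blood precursors in the marrow are damaged by it, and the blood cell lines are rebuilt from surviving cells in the days that follow. Neutrophils mature in the marrow through ordered stages, making the proteases of the primary granules first and the contents of the secondary granules, such as lactoferrin, later. Erythroid precursors load iron into haem in their mitochondria, and marrow macrophages clear dying cells and nurse erythroid precursors.

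All mice were of the inbred strain DBA/2. The 5 day 1 mice and the 5 day 2 mice had each received 83 mg/kg cyclophosphamide into the peritoneum, and whole marrow cells were collected 1 or 2 days later. Separate untreated mice (5) and mice 5 days after the same dose (5) entered the model and are given beside some values. No allele or transgene is named in the labels, and age and sex are not given there. A mouse was sampled once, so the days are different animals and not a course within an animal. Each mouse was hybridised on 2 arrays, with its RNA in the dye Cy5 and a common reference in Cy3. The labels call that reference a pool of untreated marrow, yet its treatment field names cyclophosphamide. The pool cancels in day 2 minus day 1.

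Values below are log2 ratios, and a level is that of a mouse against the reference pool. A difference is day 2 minus day 1, given ± its standard error from limma, with 5 mice a day unless another number stands beside it. No source used here gives the log base, which was taken as 2, so folds rest on that reading. A gene was called when its Benjamini-Hochberg adjusted p in limma was under 0.05. Levels of different genes are not compared, since each ratio is relative to its own spot.

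Arrays of the 2 days gave values for 4583 to 7497 of 13443 probes, and the 2 arrays of a mouse correlated at 0.758 to 0.957 across probes. Probes with a value numbered 6331 ± 500.5 (SD, n = 5) per day 1 mouse and 6452 ± 1158 (SD, n = 5) per day 2 mouse (exact two-sided permutation test, p = 0.8254, smallest possible 0.007937). The day 2 mice resembled each other, with mean correlations to their own group of 0.623 to 0.697. Day 1 mice 1 and 4 resembled their group least (0.354 and 0.427), against 0.542 to 0.605 for the other day 1 mice. Those other mice, 2, 3 and 5, correlated more with the day 2 mice (0.5737, 0.6334 and 0.6135) than with their own group (0.5421, 0.5732 and 0.6053). The day 2 mice correlated less with the day 1 mice (0.430 to 0.554) than with their own group. So did day 1 mice 1 and 4 with the day 2 mice (0.3119 and 0.3126). By these correlations the mice separated by day only in part. Marker genes of marrow cell types were measured, with 11 of 18 late neutrophil genes and 10 of 18 erythroid genes testable, but ratios give no level that could check the tissue label further. Markers of bone marrow were not compared with those of another tissue.

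Of 5987 genes and unnamed probes with values in at least 3 mice of each day, 111 were called (1.85%). Of these, 72 were higher on day 2 (1.2% of all tested) and 39 were lower (0.651%). Of the larger differences most were falls: 9 of the 11 called differences of at least 2-fold were falls. Genes of mature neutrophils led the falls, with lactoferrin (Ltf) 3.29-fold lower, followed by the neutrophilic granule protein gene Ngp, whose day 1 level may be a bound. Galectin 1 (Lgals1) led the rises at 2.81-fold, followed by the neutrophil protease gene Prtn3 at 2.08-fold. By number, the respiratory chain list had the most called rises (7 of 33 tested). Next came splicing (5 of 34), the mitochondrial ribosome (4 of 30) and ribosome biogenesis (4 of 15). These counts do not rank the lists by share. The median difference over all tested was -0.02, and 747 had an unadjusted limma p under 0.05. In 86 of the 111 called the 2 groups of mice did not overlap, as in 283 of all 5987 tested. A symbol was known for 89 of the 111. The number of calls depended on the fit: with only the 10 mice of these days it was 52 (24 higher, 28 lower), of which 44 were among the 111, and with 40 arrays and the mouse as a random block it was 244.

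**Figure D1:**
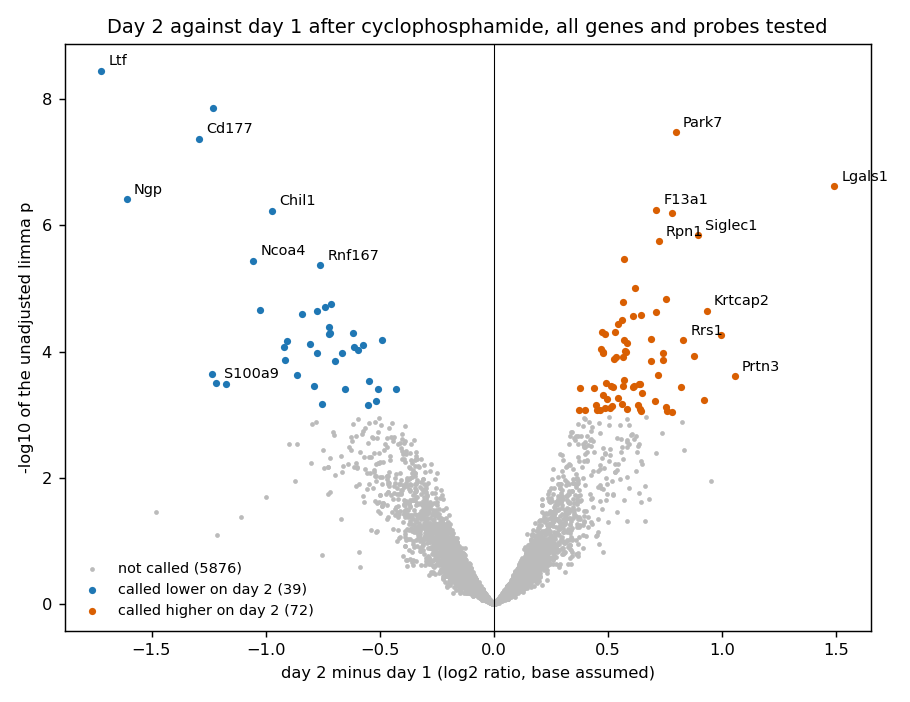
Each point is 1 of the 5987 genes or unnamed probes tested, with the difference day 2 minus day 1 (log2 ratio) across and -log10 of the unadjusted limma p upwards, and coloured points are the 39 called lower and 72 called higher. The falls reach further from 0 than the rises, with Ltf at -1.72 at one end and Lgals1 at 1.49 at the other.

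The neutrophil genes are shown first with their promoters, because the 4 largest called falls with a symbol all belong to the list of late neutrophil genes. C/EBP proteins are transcription factors of granulocyte maturation. Their core motif was searched as TTNNGNAA, with its other strand TTNCNNAA, in the 250 bases before and 50 bases after the start site, from RefSeq on GRCm38.p6. Both motifs named here were chosen after the calls were known. The sequences run 5′ to 3′ on the gene's strand, with matches in capitals. Ltf lies at chr9:111019042-111019341 (+ strand) with 2 matches, and Ngp at chr9:110419558-110419857 (+ strand) with 3. Cd177 lies at chr7:24760262-24760561 (- strand) with 1 match, and S100a9 at chr3:90695672-90695971 (- strand) with 2.
Ltf: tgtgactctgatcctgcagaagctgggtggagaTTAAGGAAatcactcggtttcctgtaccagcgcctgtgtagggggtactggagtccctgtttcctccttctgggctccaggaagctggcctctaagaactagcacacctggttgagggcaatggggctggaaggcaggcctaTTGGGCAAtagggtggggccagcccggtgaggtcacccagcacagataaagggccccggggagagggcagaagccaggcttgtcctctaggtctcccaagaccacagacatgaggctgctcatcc
Ngp: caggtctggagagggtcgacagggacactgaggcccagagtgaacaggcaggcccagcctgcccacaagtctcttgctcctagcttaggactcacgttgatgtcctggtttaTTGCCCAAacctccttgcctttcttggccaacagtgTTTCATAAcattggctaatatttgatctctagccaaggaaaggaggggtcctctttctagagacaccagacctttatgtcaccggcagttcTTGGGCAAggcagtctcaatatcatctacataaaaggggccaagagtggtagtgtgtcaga
Cd177: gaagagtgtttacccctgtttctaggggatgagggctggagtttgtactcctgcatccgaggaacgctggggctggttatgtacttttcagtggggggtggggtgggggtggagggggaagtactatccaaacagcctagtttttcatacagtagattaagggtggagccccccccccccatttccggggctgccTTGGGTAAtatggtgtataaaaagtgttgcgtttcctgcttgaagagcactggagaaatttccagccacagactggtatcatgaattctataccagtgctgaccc
S100a9: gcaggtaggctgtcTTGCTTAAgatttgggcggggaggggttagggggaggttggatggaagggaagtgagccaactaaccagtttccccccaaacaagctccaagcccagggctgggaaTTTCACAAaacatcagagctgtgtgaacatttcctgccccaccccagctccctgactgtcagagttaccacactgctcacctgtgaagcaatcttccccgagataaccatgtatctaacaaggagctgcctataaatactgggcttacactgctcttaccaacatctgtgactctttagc
All 4 promoters held the motif, which is common: it was in 40.7% of the 27025 promoters of the table and in 34.2% of the 3555 promoters of tested genes. Among the called genes with a promoter in the table it was in 16 of 27 that were lower (59.3%) and in 19 of 47 that were higher (40.4%). An E-box (CACGTG, the same on both strands) was in 8 of the 47 that were higher (17%), in 0 of the 27 that were lower and in 9.42% of tested genes. These matches describe letters in a window and show no binding.

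Late neutrophil genes were lower on day 2 than on day 1. Of 11 tested, 4 were called lower and 0 higher, all 11 had a difference below 0, and the median difference was -0.80. Of all genes and probes tested, 0.651% were called lower. Lactoferrin, the iron-binding protein of secondary granules, stood at 0.33, -0.78, -0.40, 0.37 and -0.55 in day 1 mice 1 to 5 and at -1.80, -1.65, -1.90, -1.98 and -2.30 in day 2 mice 1 to 5. The days did not overlap, and the day 1 mice spread about 0, some above the pool and some below. The difference was -1.72 ± 0.19 (adjusted p = 2.11e-05 in limma).

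Ngp, another granule protein gene, had day 1 levels of -0.39, -0.88, -0.28, -0.65 and -0.20 and day 2 levels of -2.10, -1.89, -2.71, -1.07 and -2.67. Every day 2 mouse was below every day 1 mouse, with mouse 4 nearest. The difference was -1.61 ± 0.23 (adjusted p = 3.85e-04 in limma). On 5 of the day 1 arrays and 0 of the day 2 arrays this probe lay at a value shared to within 0.001 by a set of probes of that array, as spots at the scanner's limit would, so its day 1 level may be a bound.

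Cd177, a surface glycoprotein of neutrophils, had levels of 0.37, -0.75, -0.30, 0.02 and -0.19 on day 1. On day 2 they were -1.49, -1.12, -1.40, -1.35 and -1.94. The days did not overlap, and the difference was -1.29 ± 0.16 (adjusted p = 6.34e-05 in limma). S100a9, a subunit of the abundant neutrophil protein calprotectin, was measured in 3 day 2 mice, at -0.62, -1.47 and -0.89, against 1.01, -0.20, -0.12, -0.03 and 0.46 on day 1. All 3 lay below the day 1 mice (difference -1.22 ± 0.28, adjusted p = 0.0267 in limma). S100a9 was called in 16 of the 20 alternatives that tested it, and the losses included the fits without day 1 mouse 5, without day 1 mice 1 and 4, and with only the mice of days 1 and 2.

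Of the uncalled members, Anxa1 had a difference of -0.90, the histone-citrullinating enzyme Padi4 -0.80, haptoglobin (Hp) -0.73, gelatinase (Mmp9) -0.69 and the growth factor receptor Csf3r -0.13. Over the 7 members measured in all 10 mice, the list mean was between -0.44 and 0.26 on day 1 and between -1.23 and -0.82 on day 2. In whole marrow, fewer cells of a type and less RNA per cell cannot be told apart. Without day 1 mice 1 and 4, 3 of 9 tested members were called lower and the median difference was -0.99.

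**Figure D2:**
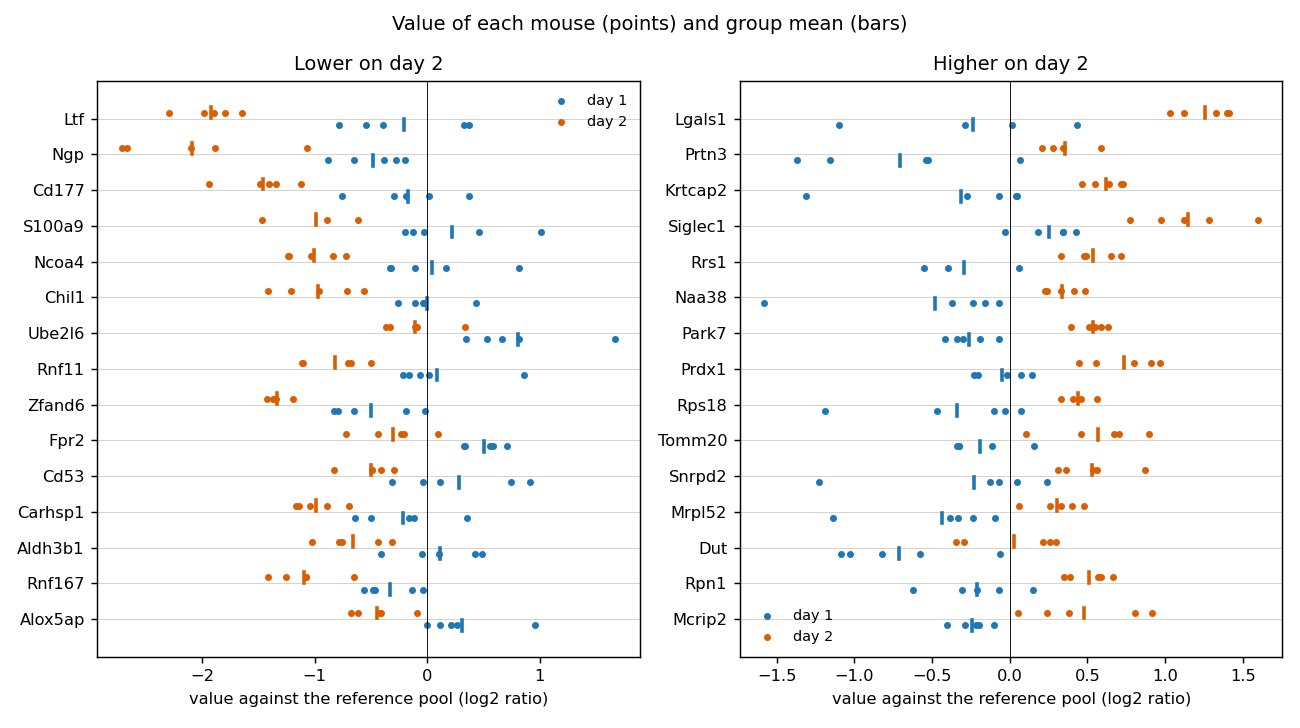
Points are mice and bars are group means on the scale of log2 ratios to the reference pool, for the 15 largest called falls and 15 largest called rises with a symbol. Day 2 mice (orange) and day 1 mice (blue) are fully apart for Ltf, Cd177, Park7 and Siglec1, while Cd53, Aldh3b1, Dut and Tomm20 overlap, and 1 low day 1 mouse stands away from its group in Krtcap2, Naa38, Snrpd2 and Mrpl52.

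The 15 largest falls also held genes outside that list, which are given singly here because they form no list. Chil1, a chitinase-like protein of neutrophil granules, had day 1 levels of -0.03, -0.26, -0.04, 0.43 and -0.11 and day 2 levels of -1.22, -0.71, -0.56, -1.42 and -0.97 (difference -0.97 ± 0.14, adjusted p = 4.25e-04 in limma). No day 2 mouse reached the day 1 range. Fpr2, a receptor for bacterial formyl peptides, stood at 0.33 to 0.71 on day 1 and at -0.72 to 0.09 on day 2 (difference -0.81 ± 0.17, adjusted p = 0.0105 in limma). Alox5ap, which presents arachidonic acid for leukotriene synthesis, had a difference of -0.75 ± 0.19 (adjusted p = 0.0429 in limma). It was called in 13 of 24 alternatives. The call was lost without day 1 mouse 1, 3 or 4, without day 2 mouse 1, 2, 4 or 5, and with only the mice of days 1 and 2. Day 1 mouse 1 had the highest level, 0.96, and without it the difference was -0.59 (adjusted p = 0.0937 in limma). The leukocyte tetraspanin gene Cd53 fell by 0.79, with overlapping days, from -0.32 to 0.91 on day 1 to -0.83 to -0.30 on day 2, and it was called in 18 of 24 alternatives.

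The list of primary granules and granulocyte precursors (1 of 3 tested) and the monocyte list (1 of 4 tested) each had 1 called gene, higher on day 2. Prtn3, proteinase 3 of the primary granules, had day 1 levels of -0.52, -1.16, -0.54, -1.37 and 0.06. In the 4 day 2 mice with a value they were 0.34, 0.21, 0.58 and 0.28. The days did not overlap, although day 1 mouse 5 came near the day 2 mice, and the difference was 1.06 ± 0.24 (adjusted p = 0.0217 in limma). Prtn3 lost its call in 8 of the 23 alternatives that tested it. The losses included the fits without day 1 mouse 2, day 1 mouse 4 or day 2 mouse 4, and with only the mice of days 1 and 2. Of the other tested members of the primary granule list, Plac8 had a difference of 0.60 and the transcription factor gene Gfi1 -0.01, and the myeloperoxidase gene Mpo was measured in too few mice.

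F13a1, the A subunit of coagulation factor XIII and a monocyte marker, rose from -0.95, -1.28, -0.87, -1.22 and -1.11 on day 1 to -0.39, -0.16, -0.57, -0.37 and -0.39 on day 2. Both groups were tight and apart, with a difference of 0.71 ± 0.11 (adjusted p = 4.25e-04 in limma). The list of monocyte genes had 1 of 4 tested members called higher and a median difference of 0.31. Ms4a6c had a difference of 0.37 and Emb 0.24, while Cybb, the oxidase subunit that neutrophils also carry, had -0.73, and none of these was called. The mean of the 3 members measured in all 10 mice was -0.55 to -0.24 on day 1 and -0.04 to 0.22 on day 2. Cybb, the only tested member with a difference below 0, was not among them, so this mean does not stand for the list.

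The macrophage receptor gene Siglec1 was higher on day 2. It encodes sialoadhesin, the CD169 marker of resident marrow macrophages. Its levels were 0.18, -0.03, 0.43, 0.34 and 0.34 on day 1 and 0.97, 1.60, 0.78, 1.12 and 1.28 on day 2, with no overlap and a difference of 0.90 ± 0.14 (adjusted p = 8.48e-04 in limma). All 7 tested macrophage genes had a difference above 0 (median 0.42), but only Siglec1 was called (1 of 7, against 1.2% higher over all tested). The iron exporter Slc40a1 had a difference of 0.48 and the complement genes C1qa, C1qc and C1qb 0.46, 0.17 and 0.06.

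C1qb varied widely within day 2, at 2.30, 1.68, 1.89, 0.70 and -0.04, against 0.94 to 1.67 on day 1 (difference 0.06 ± 0.31, adjusted p = 0.986 in limma). The 2 lowest day 2 mice in C1qb, 4 and 5, were also the lowest in the stromal chemokine gene Cxcl12, at -0.39 and -0.21 against 0.72 to 1.52 in the other day 2 mice. Cxcl12 was not called either (difference 0.21 ± 0.31, adjusted p = 0.884 in limma). The macrophage list mean over 4 genes overlapped between days, at 0.30 to 0.80 on day 1 and 0.80 to 1.27 on day 2.

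Lgals1 encodes galectin 1, a sugar-binding protein made by many cell types including macrophages and stroma, and it belongs to no list used here. In the 4 day 1 mice with a value it stood at -0.29, 0.02, -1.10 and 0.43, and on day 2 at 1.03, 1.33, 1.41, 1.40 and 1.12. The day 2 mice were all higher and closer together (SD 0.17, against 0.65 on day 1). The difference was 1.49 ± 0.21 (adjusted p = 2.88e-04 in limma), with an error that does not show the wide day 1.

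Genes of iron and haem handling contributed 1 called fall. Ncoa4, the receptor that delivers ferritin for breakdown and so frees its iron, had levels of 0.17, -0.33, -0.32, 0.81 and -0.11 on day 1 and -1.24, -1.03, -1.23, -0.72 and -0.83 on day 2. The days did not overlap, and the fall was -1.05 ± 0.18 (adjusted p = 0.00167 in limma). It was the only 1 of 13 tested members called, and the list's median difference was -0.13. Alas2, the erythroid enzyme that starts haem synthesis, had 0.59, 0.43, 0.70, 1.58 and 0.46 on day 1 and 0.40, -0.41, 0.04, 0.12 and -0.29 on day 2. Its days did not overlap, yet it missed the threshold (difference -0.78 ± 0.21, adjusted p = 0.0638 in limma). It was called in 5 of 24 alternatives.

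None of 10 tested erythroid genes was called (median difference -0.30, 8 of 10 below 0). The blood group gene Kel had -0.57, the spectrin anchor Ank1 -0.42, the transcription factor genes Klf1 -0.39 and Gata1 -0.16, and the globin gene Hba-a1 0.33. Over the 5 haem and iron genes measured in all 10 mice, the list mean was -0.28 to 0.42 on day 1, with mice 1 (0.16) and 4 (0.42) highest, and -0.75 to -0.39 on day 2. The median difference of those 5 was -0.67, against -0.13 over all 13 tested, so this mean does not stand for the list. The erythroid list mean overlapped between days, at -0.97 to -0.25 on day 1 and -1.002 to -0.76 on day 2.

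By number, genes of the respiratory chain and ATP synthase had the most called rises of the 40 lists, which differ in size. Of all genes and probes tested, 1.2% were called higher. Of 33 tested genes of the respiratory chain and ATP synthase, 7 were called higher and 0 lower, 30 had a difference above 0, and the median difference was 0.41. The called members were Ndufs7, Ndufc2 and Ndufb4 of complex I, which takes electrons from NADH, Cyc1 of complex III, Cox8a of complex IV, and Atp5c1 and Atp5d of the ATP synthase. Ndufs7 stood at -0.42, -0.50, -0.37, -0.96 and -0.60 on day 1 and at -0.04, 0.02, -0.27, 0.06 and 0.02 on day 2. Its days did not overlap, with a difference of 0.53 ± 0.12 (adjusted p = 0.0133 in limma).

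Cyc1 had -0.28, -0.84, -0.29, -0.29 and -0.62 on day 1 and -0.11, 0.09, 0.00, 0.40 and 0.15 on day 2 (difference 0.57 ± 0.12, adjusted p = 0.0098 in limma). Ndufc2 rose by 0.58 ± 0.12 and Cox8a by 0.65 ± 0.17. Cox8a was nearly level within day 2 (0.27 to 0.38), while day 1 ran from -1.16 to 0.17, and it was called in 11 of 24 alternatives. The succinate dehydrogenase genes Sdhb, Sdhc and Sdhd had differences of 0.02, -0.03 and 0.15.

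These respiratory calls were sensitive to the mice in the fit and to how the arrays were scaled. Day 1 mouse 4 had the lowest list mean (-0.79, against -0.47 to -0.05 in the other day 1 mice), and without it 4 of 33 were called and the median difference was 0.25. The count was also 4 of 33 without day 1 mouse 2 and without day 2 mouse 2, 4 or 5. The same count came with arrays recentred, brought to 1 scale or brought to 1 distribution. With only the mice of days 1 and 2 in the fit, 0 of 33 were called, at the same median. Without day 1 mice 1 and 4, 6 of 29 were called, with a median of 0.33. The list means of the days overlapped (-0.79 to -0.05 and -0.12 to 0.19). Whether mouse 4's position has a part in these values beyond that was not tested.

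Called genes of mitochondrial protein import and of the mitochondrial ribosome were all higher. All 11 tested import genes had a difference above 0 (median 0.36), and 2 were called higher, against 1.2% over all tested. Tomm20, a receptor of the outer membrane translocase, had -0.33, -0.34, -0.12, -0.33 and 0.15 on day 1 and 0.11, 0.70, 0.46, 0.90 and 0.67 on day 2. Only day 2 mouse 1 fell within the day 1 range (difference 0.76 ± 0.14, adjusted p = 0.00539 in limma). Tomm6, a small subunit of that translocase, rose by 0.57 ± 0.14 and was not called with only the mice of days 1 and 2, nor without day 2 mouse 1 or 5. The mitochondrial chaperone gene Hspa9 had a difference of 0.56 and was not called. The import list mean over 8 genes was -0.38 to -0.03 on day 1 and 0.08 to 0.27 on day 2.

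Mitochondrial ribosomal protein genes had 4 of 30 tested called higher, 0 lower, and a median difference of 0.10, with 21 of 30 above 0 and 9 below. The share called higher over all tested was 1.2%. With only the mice of days 1 and 2 in the fit, 2 of the 30 were called, as without day 2 mouse 4 (2 of 27). Mrpl11 rose most steadily, from 0.15, -0.11, -0.05, -0.31 and -0.07 to 0.45, 0.53, 0.50, 0.68 and 0.27 (difference 0.56 ± 0.11, adjusted p = 0.00692 in limma). Mrpl52, Mrpl42 and Mrpl58 rose by 0.74, 0.69 and 0.38, and Mrpl58 lost its call in 8 of 24 alternatives. The list mean over 22 genes did not overlap either, at -0.22 to 0.00 on day 1 and 0.06 to 0.21 on day 2.

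**Figure D3:**
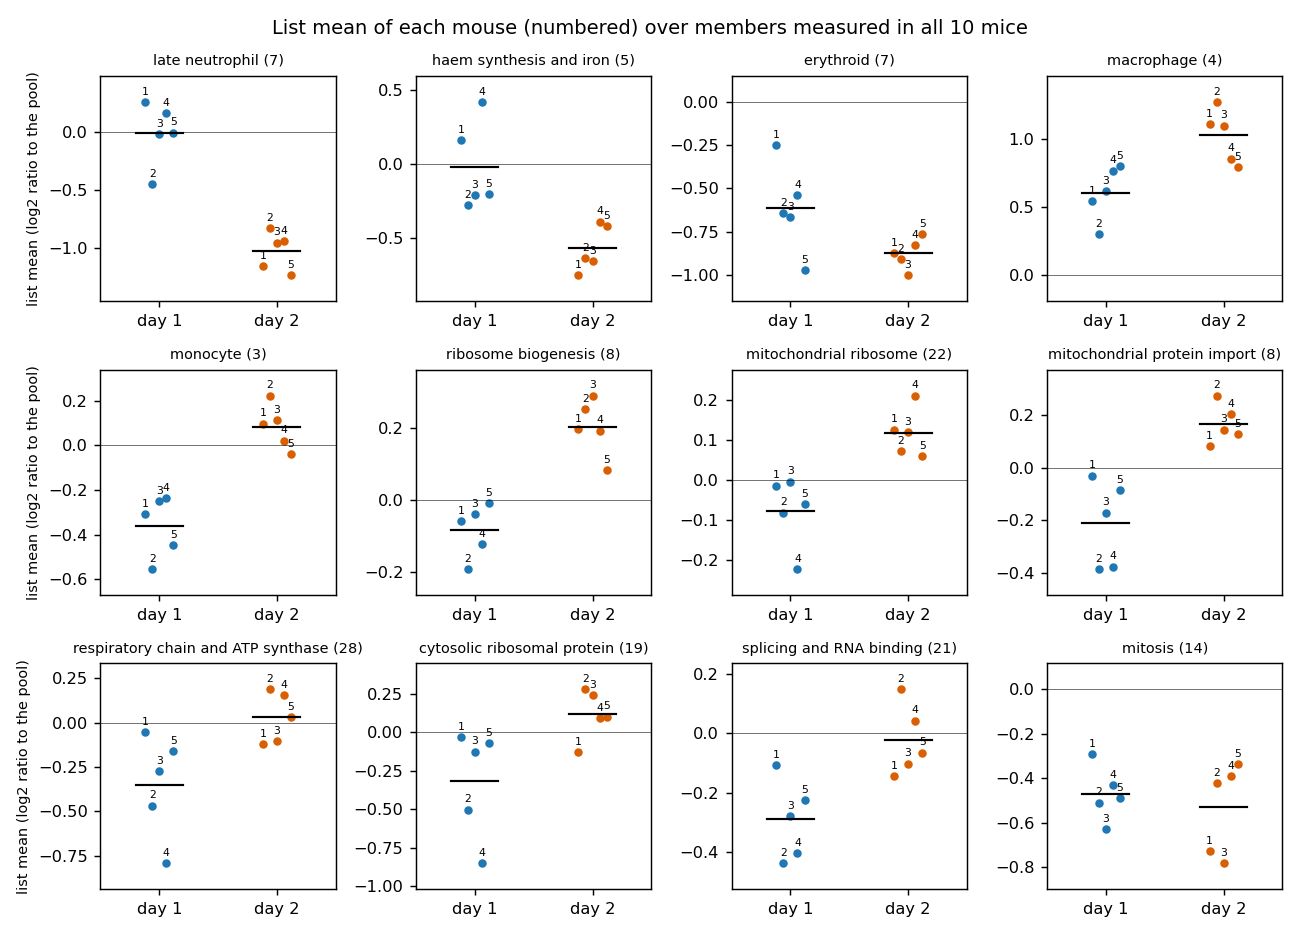
The mean level (log2 ratio to the reference pool) over list members measured in all 10 mice is plotted for each numbered mouse of day 1 (blue) and day 2 (orange), with the group mean as a bar and the number of genes in brackets. The late neutrophil, haem and iron, monocyte, ribosome biogenesis, mitochondrial ribosome and mitochondrial import means do not overlap between days. The monocyte mean leaves out Cybb, the only tested member with a difference below 0 (-0.73). In all other lists of the 40, drawn here or not, they overlap. Day 1 mouse 4 is lowest for the respiratory chain (-0.79) and the cytosolic ribosomal proteins (-0.85).

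Of 15 tested ribosome biogenesis genes, 4 were called higher and 0 lower, and 12 had a difference above 0 (median difference 0.20). Over all tested, 1.2% were called higher and 0.651% lower. The helicase gene Ddx54, in no list used here, was called lower. Rrs1, an assembly factor of the large subunit, had -0.55, -0.40 and 0.06 in the 3 day 1 mice with a value and 0.49, 0.33, 0.48, 0.65 and 0.71 on day 2 (difference 0.83 ± 0.16, adjusted p = 0.0098 in limma). The snoRNP core protein gene Nop58, the nucleolar helicase gene Ddx21 and the RNA exosome subunit gene Exosc5 rose by 0.64, 0.63 and 0.54. Of these, Exosc5 kept its days apart, at -0.46 to 0.12 and 0.22 to 0.63, and the other 2 overlapped through day 2 mouse 5. Nop58 was called in 9 of 24 alternatives and Ddx21 in 14. Myc, a driver of ribosome production, had a difference of 0.34 and was not called. The list mean over 8 genes was -0.19 to -0.01 on day 1 and 0.08 to 0.29 on day 2. The calls fell to 1 of 15 with only the mice of days 1 and 2 in the fit, and also with arrays brought to 1 scale. They fell to 1 of 12 without day 1 mouse 2 and to 1 of 13 without day 1 mouse 3. They fell to 2 without day 1 mouse 4 or without day 2 mouse 1, 2, 3 or 4.

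Cytosolic ribosomal protein genes shifted with a median difference of 0.48, and 25 of 27 tested were above 0, yet only Rps18 was called. Rps18 had 0.07, -0.47, -0.10, -1.19 and -0.03 on day 1 and 0.41, 0.33, 0.56 and 0.46 in the 4 day 2 mice with a value (difference 0.78 ± 0.20, adjusted p = 0.0483 in limma). Its lowest mouse was again day 1 mouse 4, whose list mean was -0.85 against -0.50 to -0.03 in the rest of day 1. Without that mouse 0 of 23 were called and the median difference was 0.33. The count was also 0 without day 1 mouse 2, without day 2 mouse 2, 3, 4 or 5, and with only the mice of days 1 and 2. It was 0 as well with arrays recentred or brought to 1 scale. Rps18 was called in 10 of the 23 alternatives that tested it.

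Among splicing and RNA-binding genes, 5 of 34 tested were called higher and 0 lower (median difference 0.28), against 1.2% and 0.651% over all tested. Hnrnpab, an RNA-binding protein gene, had -0.16, -0.97, -0.55, -0.40 and -0.62 on day 1 and 0.19, 0.07, -0.02, 0.20 and -0.06 on day 2, without overlap (difference 0.61 ± 0.12, adjusted p = 0.00628 in limma). The spliceosome core gene Snrpd2, Lsm4 of the U6 particle, Hnrnpm and the splicing factor gene Srsf2 rose by 0.76, 0.57, 0.58 and 0.54. With only the mice of days 1 and 2 in the fit, 0 of the 34 were called. With arrays recentred, brought to 1 scale or brought to 1 distribution, 3 of the 34 were called. Leaving out 1 mouse gave 2 to 6 calls, with 2 without day 1 mouse 3, day 2 mouse 2 or day 2 mouse 4, and 3 without day 1 mouse 2 or 4 or day 2 mouse 3 or 5. Snrpd2 was called in 14 of 24 alternatives and Hnrnpm in 9 of the 19 that tested it. Of 27 translation factors and tRNA synthetases, Iars, which charges tRNA with isoleucine, and Eif3i, of an initiation factor, were called higher (2 of 27, median 0.22). Eif3i was called in 11 of 24 alternatives, and with only the mice of days 1 and 2 the list had 1 of 27 called. The list also had 1 called without day 1 mouse 5 and without day 2 mouse 2, 3, 4 or 5. Iars went from -0.84, -0.43, -0.49, -0.22 and -0.47 to 0.04, 0.20, -0.01, 0.28 and 0.24 (difference 0.64 ± 0.12, adjusted p = 0.00628 in limma).

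The list of glutathione and peroxide genes had 1 member called higher and 1 lower of 17 tested, with a median difference of 0.11. Prdx1, a peroxiredoxin that reduces hydrogen peroxide, had -0.20, -0.23, 0.14, -0.02 and 0.07 on day 1 and 0.44, 0.91, 0.56, 0.80 and 0.97 on day 2 (difference 0.78 ± 0.12, adjusted p = 4.25e-04 in limma). The redox-sensitive chaperone gene Park7, in no list used here, had the smallest p among the rises with a symbol, with -0.34, -0.30, -0.07, -0.42 and -0.19 on day 1 and 0.55, 0.63, 0.51, 0.58 and 0.40 on day 2. Both groups were narrow and well apart (difference 0.80 ± 0.10, adjusted p = 6.34e-05 in limma).

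In the same list the microsomal transferase gene Mgst1 fell, from 0.13, -0.11, 0.06, 0.16 and -0.09 to -0.75, -0.42, -0.63, -1.02 and -0.60 (difference -0.71 ± 0.13, adjusted p = 0.00591 in limma). Rpn1 and Krtcap2, subunits of the oligosaccharyltransferase that glycosylates new proteins in the endoplasmic reticulum, rose by 0.72 ± 0.11 and 0.93 ± 0.18. Krtcap2 had a single low day 1 mouse, mouse 4 at -1.31, and without it the difference was 0.68 (adjusted p = 0.00161 in limma). Calr, a calcium-binding chaperone gene, was the 1 of 14 chaperone genes called, but its 2 probes disagreed, at -0.08 over 3 mice a day and 0.80 over 5.

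Ube2l6, the conjugating enzyme for the ubiquitin-like protein ISG15, had 0.34, 0.67, 0.82, 1.67 and 0.53 on day 1 and -0.34, -0.36, -0.10, 0.34 and -0.11 on day 2 (difference -0.92 ± 0.19, adjusted p = 0.0112 in limma). It was the 1 of 18 tested ubiquitin conjugation genes called, and the list's median difference was 0.02. Among other large falls, which belong to no list used here, the RING finger genes Rnf11 and Rnf167 fell by 0.91 and 0.76 and the zinc finger gene Zfand6 by 0.84. Rnf167 was apart in all mice, at -0.56 to -0.04 and -1.42 to -0.65. The RNA-binding protein gene Carhsp1 and the aldehyde dehydrogenase gene Aldh3b1 each fell by 0.77.

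The lists of DNA replication and mitosis had called members in opposite directions. Over all tested, 1.2% were called higher and 0.651% lower. Of 24 tested DNA replication genes, Mcm4, a subunit of the replicative helicase, and Dut, which clears dUTP, were called higher (median difference 0.09). Mcm4 went from -0.93, -1.30, -0.96, -0.65 and -0.66 to -0.59, 0.12, -0.13, -0.27 and -0.18, with day 2 mouse 1 nearest to day 1 (difference 0.69 ± 0.14, adjusted p = 0.0098 in limma). Dut rose by 0.74 ± 0.16. Pcna had a difference of 0.11 and the ribonucleotide reductase gene Rrm2 -0.49, and neither was called.

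Of 20 tested mitosis genes 1 was called, the spindle protein gene Nusap1, which was lower. Its levels were -0.63, -0.28, -0.94, -0.38 and -0.90 on day 1 and -1.49, -1.25, -1.59, -1.31 and -0.82 on day 2, overlapping through day 2 mouse 5 (difference -0.66 ± 0.14, adjusted p = 0.0116 in limma). Cdk1, the kinase that starts mitosis, had -0.02 and cyclin A2 (Ccna2) 0.34, and the list's median difference was -0.02. Nusap1 was called in 20 of 24 alternatives. Without day 1 mice 1 and 4 it was not called and 1 other mitosis gene was called higher. The proliferation marker gene Mki67 was measured in too few mice.

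The p53 target Cdkn1a, an inhibitor of cyclin-dependent kinases, was high against the pool on both days. It stood at 1.97, 0.29, 2.33, 1.64 and 1.52 on day 1 and at 1.17, 0.94, 1.60, 2.31 and 2.03 on day 2 (difference 0.06 ± 0.26, adjusted p = 0.981 in limma). None of 9 p53 targets was called (median difference -0.12), Trp53inp1 having the largest difference at -0.57. The 22 of 40 lists without a called member had medians from -0.30 (erythroid) to 0.38 (megakaryocyte). Megakaryocyte genes were all 4 above 0, with the integrin gene Itga2b at 0.67 ± 0.18 (adjusted p = 0.0583 in limma) and Pf4 at 0.45. B cell precursor genes had Vpreb1 at 0.10 and Vpreb3 at -0.54, and T and NK cell, endothelial and stromal lists had medians of -0.01, 0.09 and 0.07. Cytokine genes had 1 of 18 called, the B cell survival factor Tnfsf13b, which was lower by 0.51 ± 0.13, and it was called in 12 of 24 alternatives. That call was lost without day 1 mouse 2, 3, 4 or 5, without day 2 mouse 1, 2 or 3, and with only the mice of days 1 and 2.

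**Figure D4:**
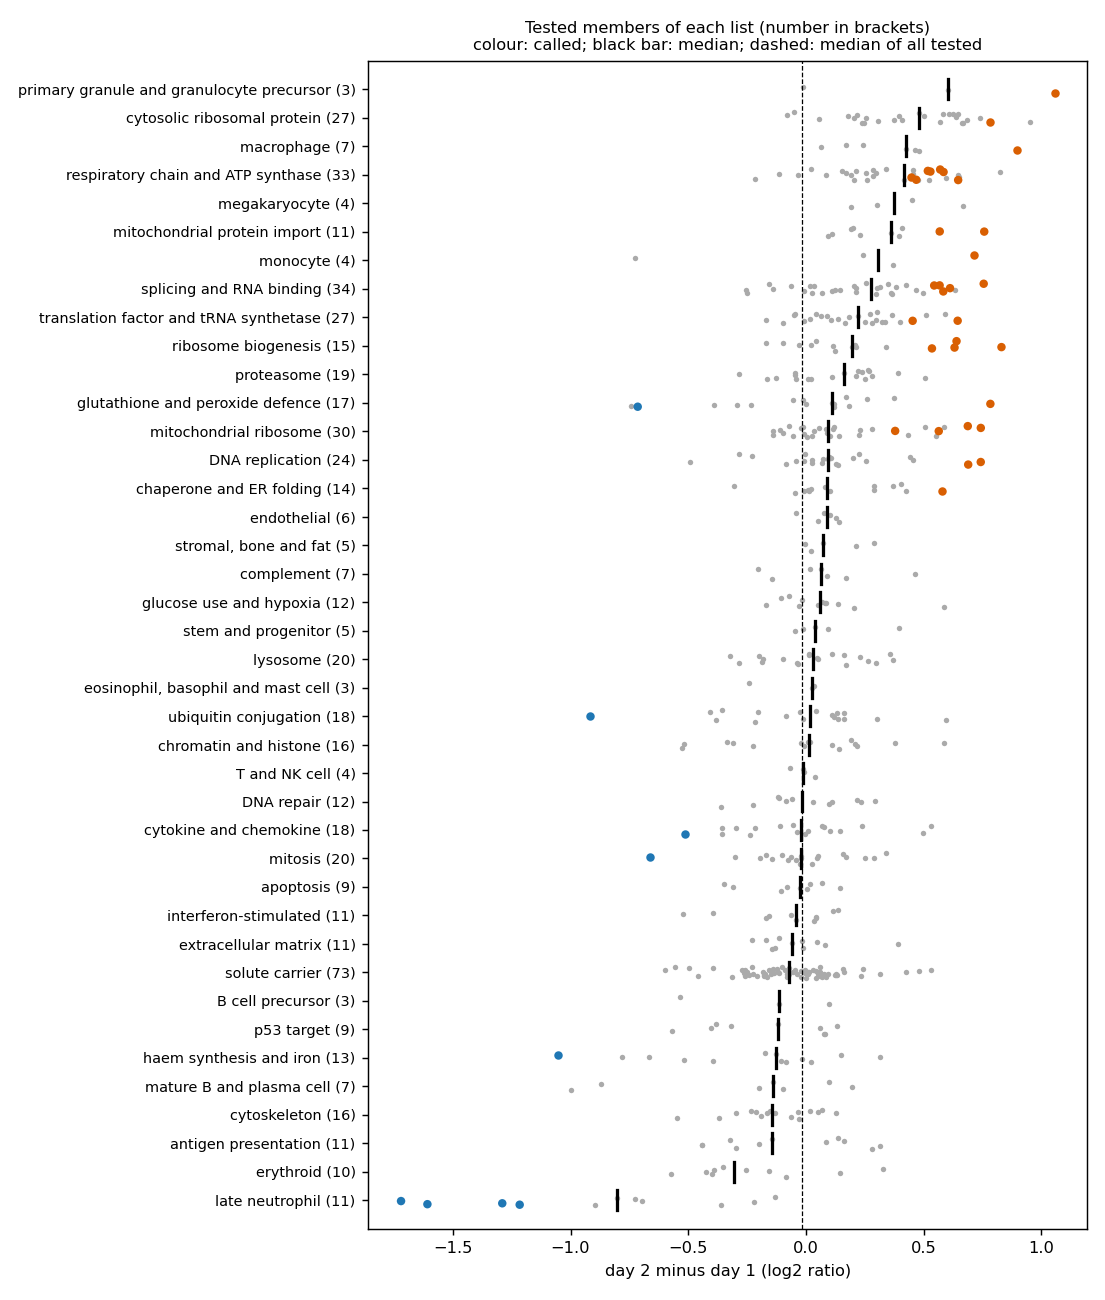
Each point is a tested member of a list, placed by its difference day 2 minus day 1 (log2 ratio), with called members in colour, the list median as a black bar and the median of all tested genes as a dashed line at -0.02. Late neutrophil genes lie lowest with a median of -0.80, and the medians of respiratory chain (0.41) and cytosolic ribosomal protein genes (0.48) lie to the right of the dashed line.

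Untreated and day 5 mice place these differences, though each comparison with control shares its day 1 or day 2 mice with the values above. The values are differences of means, and not all had an adjusted p under 0.05 in limma. Lgals1 on day 1 (0.0516) and Cyc1 on day 2 (0.614) did not. Ltf differed from control by -0.24 on day 1, -1.96 on day 2 and 0.17 on day 5, and Cd177 by -0.24, -1.53 and 0.07. For these genes the day 1 means were near the control means and the day 2 means far below. Siglec1 differed by 0.29, 1.19 and -0.10, so its day 2 mean was the highest of the 4 groups. Lgals1 differed by -0.59, 0.90 and 0.69.

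Respiratory genes were below control on day 1 in their median. Ndufs7 differed from control by -0.69 on day 1 and -0.17 on day 2, Cyc1 by -0.67 and -0.10, Tomm20 by -0.52 and 0.24 and Hnrnpab by -0.51 and 0.10. The median difference from control of the 33 respiratory genes was -0.54, -0.13 and 0.13 on days 1, 2 and 5. For the 15 ribosome biogenesis genes these medians were -0.06, 0.22 and 0.05, and Ddx21 differed by -0.09, 0.55 and -0.20. Prtn3 differed by -1.15, -0.09 and 1.35 and F13a1 by -0.90, -0.19 and 0.84 on days 1, 2 and 5, so both were lowest on day 1 and highest on day 5. Ncoa4 differed by 0.55, -0.50 and -0.11, with opposite signs on days 1 and 2 (adjusted p = 0.0341 and 0.0507 in limma). Park7 (-0.53, 0.27 and 0.10) and Prdx1 (-0.40, 0.38 and -0.23) were below control on day 1 and above it on day 2. Alas2, not called between the days, differed from control by 1.36 on day 1 and 0.58 on day 2.

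**Figure D5:**
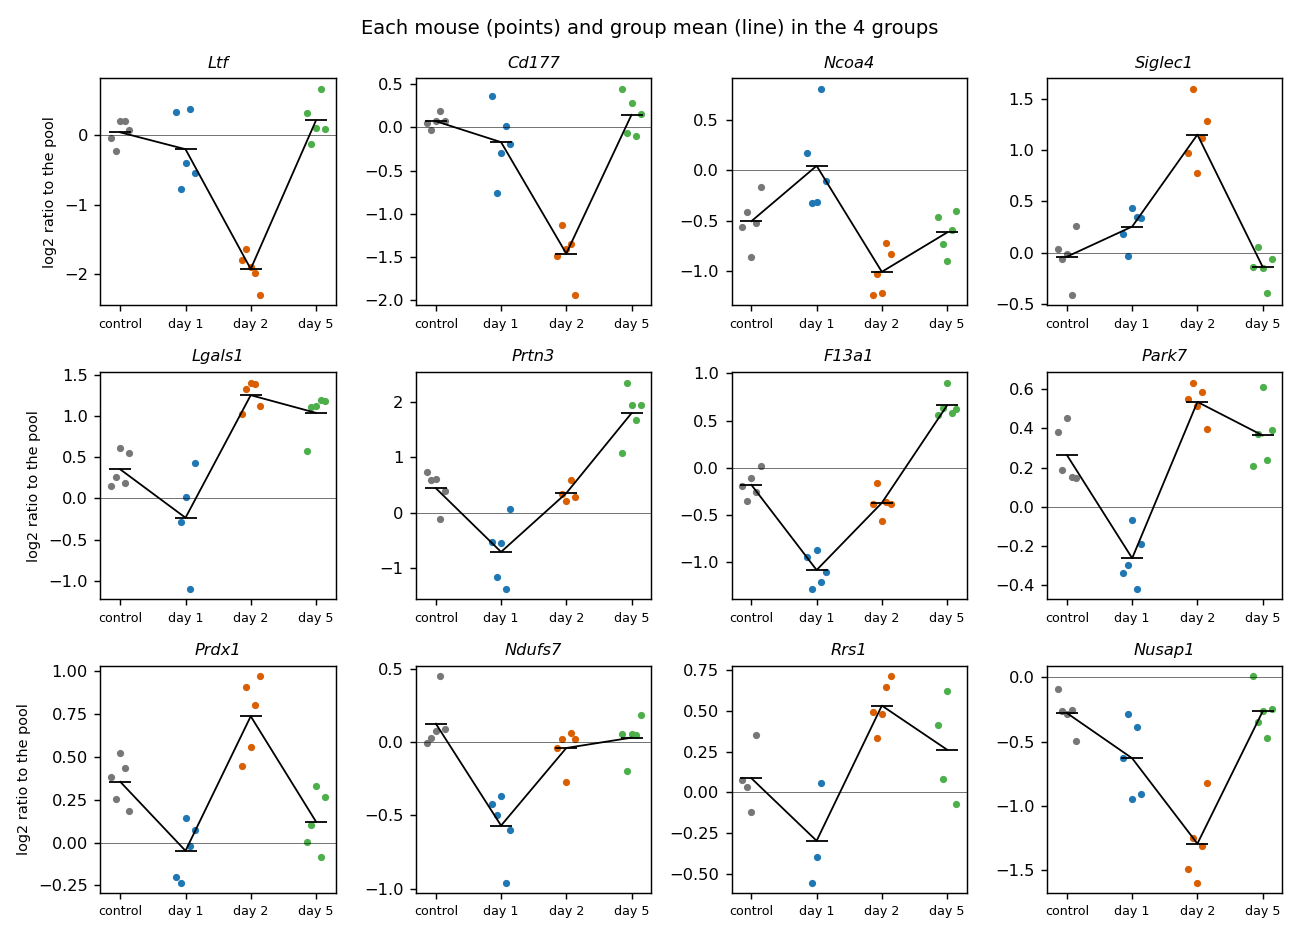
Points are mice, and the line joins group means of the level (log2 ratio to the reference pool) in untreated mice and on days 1, 2 and 5, for 12 genes with a called difference between days 1 and 2. Ltf, Cd177 and Nusap1 have their lowest mean on day 2, Siglec1, Lgals1, Park7, Prdx1 and Rrs1 their highest there, and Prtn3 and F13a1 their lowest on day 1 and highest on day 5.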

How the data were processed

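Bone marrow RNA of 20 mice was measured on 40 two-colour arrays. Per the labels' protocols, Qiagen columns were used for extraction and an Ambion amino allyl kit for amplification. The authors' deposited values, 1 per probe and array, were taken as log2 ratios of mouse over reference. Direction follows the labelled dyes. Array medians lay between -0.015 and 0.0067, as after centring, and 0 of 780 array pairs correlated below -0.3. Scanner, background correction, normalization, log base and the rule for blanks (40.7% to 69.7% of probes per array) were not given in the sources used here. Array signal over background was not used here.

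The 2 arrays of a mouse were averaged, then probes of a symbol. Of 13443 probes 10032 had 1 symbol in the platform annotation, 170 several and 3241 no entry, and 10029 of the symbols matched RefSeq. No value was filled in. limma 3.58.1 in R 4.3.3 fitted 1 mean per group over all 20 mice, and p values were adjusted over 5987 tested (4395 with a symbol). The mice are labelled as biological replicates, harvested independently. The rule for named genes took the 15 largest rises and 15 largest falls with every day 2 mouse on 1 side of the day 1 mean, up to 4 called members per list, the member with the smallest p of lists without calls, and 10 fixed genes. Genes named beyond it were chosen after their values were seen. The members and lists were chosen with earlier results of these data known. The fit was also run on simulated data, drawn independently for each gene and mouse with equal spread in all groups. That run does not cover shifts shared by many genes of a mouse, and no result here rests on it. Alternatives changed the mice, filter, probes, scaling, weights and variance model.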

Additional observations from a re-analysis of the deposited data

Results flagged for a closer look

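In 10 of 135 groups of day 1 or day 2 values examined for named called genes and list means, 1 mouse lay far from the other 4 or fewer, where chance alone gives about 1 in 20. All 10 were genes, and 8 of the 10 rested on day 1 mouse 4. This mouse was the lowest of day 1 for Krtcap2 (-1.31, next -0.28), Naa38 (-1.58, next -0.37), Mrpl52 (-1.14, next -0.38), Ndufc2 (-0.93, next -0.30), Snrpd2 (-1.23, next -0.13) and Tomm6 (-1.36, next -0.57). It was the highest for Rnf11 (0.86, next 0.01) and Tnfsf13b (0.23, next -0.04). Without it the difference was 0.55 for Naa38, 0.57 for Mrpl52, 0.44 for Ndufc2, 0.40 for Tomm6 and -0.71 for Rnf11, and each of these stayed called. Snrpd2 (0.51, adjusted p = 0.065 in limma) and Tnfsf13b (-0.45, adjusted p = 0.1 in limma) did not. Day 1 mouse 2 was lowest for Calr (-0.69, next -0.25), with a difference of 0.49 without it, still called. Day 1 mouse 1 was highest for Alox5ap (0.96, next 0.27).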

How the results depend on the processing

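All 111 called genes and probes kept their sign in every one of 24 alternatives that tested them, but the number of calls moved. With each probe on its own, a gene counted as keeping its sign if any of its probes did. The 2 probes of Calr had opposite signs (-0.08 and 0.80). It was 52 (24 higher, 28 lower) with only the mice of days 1 and 2, 244 (132 higher, 112 lower) with 40 arrays and the mouse as a random block, and 175 (106 higher, 69 lower) with weights per mouse. With arrays brought to 1 scale it was 67 (37 higher, 30 lower), and brought to 1 distribution 78 (47 higher, 31 lower). The cause was not tested. Leaving out 1 mouse gave 75 to 140 calls, 41 to 100 higher and 31 to 60 lower: the fewest rises came without day 2 mouse 4 (41) or day 2 mouse 2 (44), and the most falls without day 1 mouse 2 (60). Leaving out day 1 mice 1 and 4, chosen after seeing the data, gave 124 (89 higher, 35 lower), 74 of them among the 111. Recentring gave 100 (56 higher, 44 lower). The other filters, probe handling and variance prior gave 111 to 122. Mice with the same replicate number did not deviate together (correlations -0.397 to 0.247), and with the number as a replicate block 109 were called (64 higher, 45 lower), 94 of them among the 111. Under the block S100a9, Prtn3, Snrpd2, Rps18, Ddx21 and Eif3i were not called, and the uncalled Itga2b and Anp32b were.

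Of 52 named called genes 21 were called in every alternative that tested them and 31 were lost in at least 1. Taking the probe with the smallest p where probes were fitted singly, signs turned only among 4 uncalled genes. C1qb was -0.086 at 1 scale, -0.0387 at 1 distribution, -0.338 with weights, -0.0277 without day 1 mice 1 and 4, and -0.185 to 0.4 with 1 mouse left out. Cdkn1a was -0.0226 at 1 scale and -0.253 to 0.258 with 1 mouse left out, Cxcl12 -0.225 with weights and -0.0136 to 0.463, and Vpreb1 -0.00333 to 0.234. Across all 5987 tested, with at least 3 mice a day, the median standard error of a difference was 0.13. The median called difference was 0.64 in size. Probes measured on both arrays of a mouse differed between days by 62 (exact permutation p = 0.8889).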

Other observations

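Of the 89 called genes with a symbol, 48 belonged to none of the 40 lists. Several of them, picked here after their values were seen, concern trafficking and metabolism. Ran, the GTPase of nuclear transport, and Nup37, a nuclear pore subunit, were higher on day 2 by 0.65 ± 0.16 and 0.57 ± 0.09. Psat1, an enzyme of serine synthesis, was higher by 0.71 ± 0.18, and Idh3a, a subunit of the citric acid cycle's isocitrate dehydrogenase, by 0.56 ± 0.14. Mogs, which trims new N-glycans, was higher by 0.61 ± 0.15 and Ssr2, of the translocon-associated complex, by 0.48 ± 0.10. Ddx3x, Ddx56 and Ftsj3, genes of RNA helicases and an rRNA methyltransferase, were higher by 0.51, 0.38 and 0.53, while another helicase gene, Ddx54, was lower (difference -0.55 ± 0.14).

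Among the lower genes, Inhba, which encodes a subunit of activin A, had day 1 levels of -0.11 to 0.38 and day 2 levels of -0.84 to -0.25 (difference -0.72 ± 0.15, adjusted p = 0.00907 in limma). Isca1, which builds iron-sulfur clusters in mitochondria, stood at 0.24 to 1.19 on day 1 and -0.38 to 0.11 on day 2 (difference -0.69 ± 0.15, adjusted p = 0.0134 in limma). Against control, sharing the same mice, Isca1 differed by 0.54 on day 1 and -0.15 on day 2. Gabarapl2, of the family that marks autophagosomes, was lower by 0.72 ± 0.15, with overlapping days. Ccndbp1, a cyclin D binding protein gene, was above control by 0.72 on day 1 and by 0.12 on day 2. Unnamed probes made up 22 of the 111 called and 4 of the 9 called falls of at least 2-fold.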
